A study of Mus musculus with 6 samples.

Results

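Transcripts of 36 aminoacyl-tRNA synthetase genes, 20 for cytosolic and 16 for mitochondrial enzymes, were compared between C2C12 cells with a hairpin against Gaa and cells with a scrambled hairpin. The genes were chosen by symbol, and all 36 were found among the 24421 symbols of the deposited count table. C2C12 is a mouse myoblast line that fuses into myotubes in low-serum medium. All cultures were grown with 10% fetal bovine serum and 4.5 g/l glucose, given a lentivirus, selected with puromycin and differentiated with 2% horse serum and 4.5 g/l glucose. Both groups carry a lentiviral short hairpin, shGAA in 3 libraries and shScrambled in 3 libraries, and the sample titles add the word Fed to both without explaining it. Neither the count of distinct hairpins nor a separate culture or infection for each library is stated. The p-values cover only the variation among the 6 libraries, and it may be technical.

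Aminoacyl-tRNA synthetases attach each amino acid to its matching transfer RNA, the step that sets the reading of the genetic code before the ribosome. Cytosolic and mitochondrial protein synthesis use largely separate sets of these enzymes, both encoded in the nucleus, and the mitochondrial set is imported. Gars and Kars supply both compartments from the same gene, and the mitochondrion has no glutaminyl enzyme of its own, since Ears2 and an amidotransferase take that role. Transcription of many cytosolic synthetase genes is known to rise under the transcription factor ATF4 when amino acids are short or the endoplasmic reticulum is stressed. The enzymes fall into the structurally unrelated classes I and II, and a group of the cytosolic ones is held in a multi-synthetase complex by scaffold proteins.

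In the cultures with the Gaa hairpin, 9 of the 20 cytosolic synthetase transcripts were higher, 5 were lower and 6 did not pass the test, the largest change being 1.30-fold. None of the 16 mitochondrial synthetase transcripts passed in either direction. A call means an adjusted p under 0.05 in edgeR's quasi-likelihood test, adjusted by Benjamini and Hochberg's method across the 11801 genes tested. By that rule 18.5% of all tested genes were higher and 19.7% lower, together 38.2%. Scaling by library size alone gave 11 higher and 4 lower cytosolic genes and 2 higher mitochondrial genes. Over all genes that scaling gave 2809 higher and 1872 lower in place of 2182 and 2330. A non-robust fit of the same test called 1 mitochondrial gene lower. The higher cytosolic genes were Sars, Yars, Iars, Aars, Nars, Cars, Lars, Eprs and Gars, and the lower ones were Vars, Farsb, Kars, Dars and Hars. The median log2 fold change (shGAA over shScrambled) was 0.13 in the cytosolic set and -0.07 in the mitochondrial set, against 0.01 over all tested genes.

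**Figure D1:**
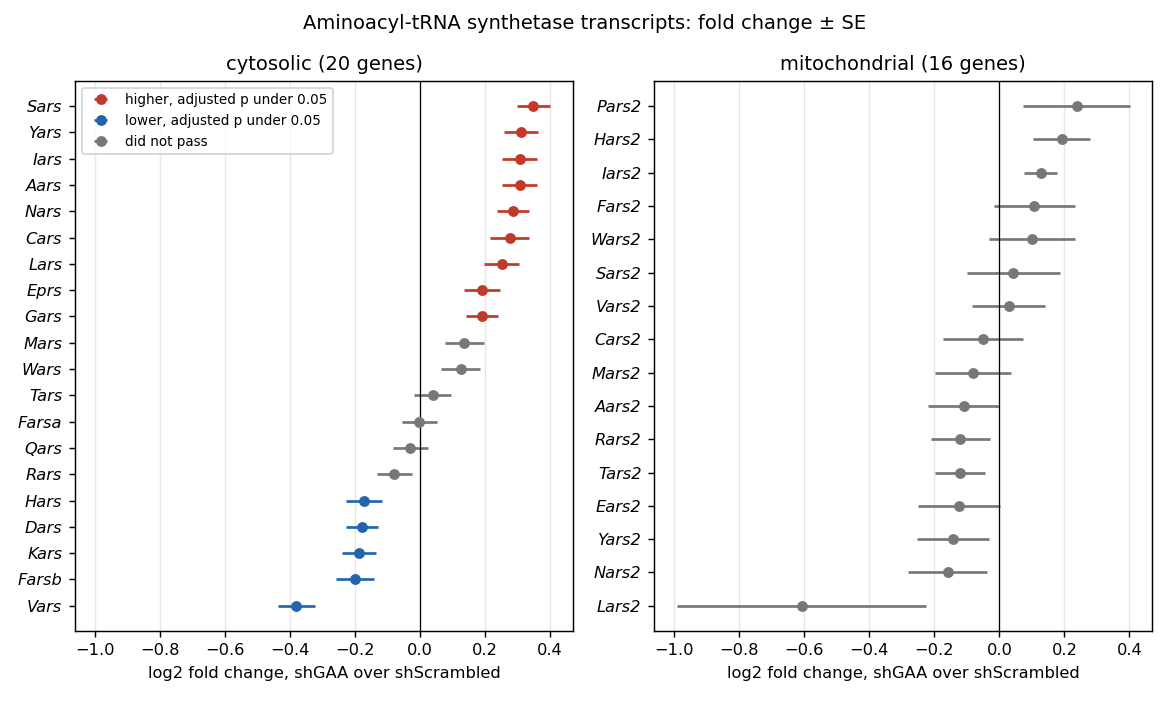
Log2 fold change of each synthetase transcript, shGAA over shScrambled, with bars of ± SE (3 libraries per group), cytosolic genes on the left and mitochondrial genes on the right. The called cytosolic genes lie on both sides of 0, from Vars at -0.38 to Sars at 0.35, while every mitochondrial gene is grey and Lars2 has the widest bar.

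Promoter sequences are shown for the cytosolic genes that hold TGATGNAA, the core of the amino acid response element through which ATF4 acts with its partners. The RefSeq promoter table on GRCm38.p6 gives 250 bases before and 50 bases after a gene's start, and 27 of the 36 genes matched it. The genes Cars, Hars, Lars, Nars, Rars, Vars, Wars, Hars2 and Pars2 were not matched. On either strand, TGATGNAA was found in 5 of 13 matched cytosolic genes and in 0 of 14 matched mitochondrial genes. It was found in 2.63% of the 9016 tested genes with a window and in 3.97% of all 32851 windows. Of the matched cytosolic genes, those holding it were 4 of 6 higher genes (Aars, Gars, Iars and Yars), 0 of 3 lower genes and 1 of 4 genes that did not pass (Tars). The stretches below give the 120 bases before the start on the gene's strand, with the match in capitals (in all 3 the motif lies on the opposite strand, so its reverse complement is what is read).
Aars, chr8:111033722-111033841, plus strand: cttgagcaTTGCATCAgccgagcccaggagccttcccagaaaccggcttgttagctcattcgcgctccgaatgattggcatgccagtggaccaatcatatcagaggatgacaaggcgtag
Gars, chr6:55037881-55038000, plus strand: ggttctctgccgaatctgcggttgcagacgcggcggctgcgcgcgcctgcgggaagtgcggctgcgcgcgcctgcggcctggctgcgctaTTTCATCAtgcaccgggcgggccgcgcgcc
Tars, chr15:11399659-11399778, minus strand: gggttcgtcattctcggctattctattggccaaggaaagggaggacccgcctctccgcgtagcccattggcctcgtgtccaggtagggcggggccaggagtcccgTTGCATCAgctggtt

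In Iars and Yars the match lies just after the start, and Aars has a second match there. The 30 bases around each were as follows, with the match in capitals, on the gene's own strand in Yars and on the opposite strand in Aars and Iars.
Aars, chr8:111033840-111033869, plus strand: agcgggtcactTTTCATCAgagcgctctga
Iars, chr13:49682126-49682155, plus strand: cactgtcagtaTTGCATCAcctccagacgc
Yars, chr4:129189895-129189924, plus strand: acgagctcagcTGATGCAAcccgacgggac
The E-box CACGTG, which reads the same on both strands, was found in Aars, Farsb, Iars, Tars and Ears2 and in 11.9% of tested genes with a window. A core of the interferon-stimulated response element was found in Qars, and in 3.65% of those genes. No match of one of these motifs overlapped a match of another. A match describes letters in the window and was not tested for binding.

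The libraries held 9224038 to 10430270 counts, of which the synthetases took 0.394% to 0.456%. Gaa, which encodes lysosomal acid alpha-glucosidase, was at 49.1 ± 2.43 CPM (counts scaled to library size by TMM; SD, n = 3) in shGAA and 117 ± 9.43 in shScrambled, a log2 fold change of -1.25 ± 0.07 (SE, edgeR adjusted p = 1.09e-09). The library shScrambled 1 stood apart from the other libraries of its group, since the chi-square of its counts, divided by the degrees of freedom, was 6.10 and 5.51 against them and 2.31 between shScrambled 2 and 3. Its median cytosolic synthetase lay 0.11 above the mean of the others on the log2 scale. Without it, 11 cytosolic genes were higher, since Mars and Wars joined, and 5 were lower. Myotube markers moved with the groups: 10 of 14 tested were lower in shGAA and 0 higher, with Actn3 (-1.14 ± 0.05), Des (-0.30 ± 0.04), Acta1 (-0.71 ± 0.08) and Ckm (-0.94 ± 0.16) at the smallest adjusted p, and their summed level was 2470 to 2689 CPM against 3373 to 3744. Over all tested genes 19.7% were lower and 18.5% higher. In such bulk samples fewer cells of a type and less RNA per cell cannot be told apart. The part of differentiation in the synthetase results was not tested.

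Markers of other cell types were near 0. The summed level was at most 0.537 CPM in any library for 6 adipocyte genes, 3.60 for 7 leukocyte genes, 5.44 for 6 endothelial genes and 1.88 for 6 osteoblast and chondrocyte genes. Among others, Plin1, Cidec, Lep, Retn, Cd3e, Itgam, Emcn and Ibsp had 0 counts in all libraries. Of these lists only the endothelial genes Tek, higher in shGAA at 1.32 ± 0.29, and Cdh5, lower at -1.35 ± 0.46, were called, at group means of at most 3.82 CPM; the call of Cdh5 ended in DESeq2 (adjusted p = 0.0663) and on leaving out shGAA 1 (edgeR adjusted p = 0.116), shGAA 2 (0.0997) or shScrambled 2 (0.155).

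The largest rise (as fitted log2 fold change) among the cytosolic synthetases was that of Sars, which charges the serine transfer RNAs and also the one for selenocysteine. Sars was at 264, 251 and 247 CPM in shGAA 1 to 3 and at 210, 191 and 197 in shScrambled 1 to 3. The lowest shGAA library was above the highest shScrambled library, with a log2 fold change of 0.35 ± 0.05 (SE, edgeR adjusted p = 4.88e-05), a 1.27-fold rise. Sars lies on chromosome 3 at 108424865 to 108445209 (GRCm38, GENCODE M21), and its exons overlap none of another gene there.

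Yars charges tyrosine. Its values were 127, 121 and 124 CPM in shGAA and 103, 98.9 and 98.0 in shScrambled, again with no overlap (0.31 ± 0.05, adjusted p = 0.000183 in edgeR). Iars charges isoleucine and is part of the multi-synthetase complex. It was at 249.6, 244 and 236 CPM in shGAA and at 212, 187 and 190.5 in shScrambled (0.31 ± 0.05, edgeR adjusted p = 0.000262). The groups of Iars did not overlap, with shScrambled 1 the nearest to shGAA, and 7.15% of its 50-base stretches also occur in Gm4849.

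Aars charges alanine, and its product can also attach lactate to proteins. Aars was at 332, 308 and 291 CPM in shGAA and 263, 237 and 254 in shScrambled (0.31 ± 0.06, edgeR adjusted p = 0.000320). The spread within shGAA, 20.2 CPM (SD), was the widest among the 9 higher genes, yet the groups did not overlap. On the same strand 14.3% of its annotated exonic bases are shared with Exosc6, a gene of the RNA exosome. Exosc6 itself was at -0.20 ± 0.12 (adjusted p = 0.201) and did not pass.

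Nars, for asparagine, had the highest mean level per kilobase of transcript among the synthetases in both groups. It was at 408, 393 and 387 CPM in shGAA and 344, 312 and 319 in shScrambled, a rise of 0.29 ± 0.05 on the log2 scale (edgeR adjusted p = 0.000182). All 3 shGAA libraries of Nars lay above all 3 shScrambled libraries. Lars, for leucine, whose product also senses leucine for the growth kinase mTORC1, was at 203, 183 and 196 CPM in shGAA and 169.7, 159 and 159.7 in shScrambled. Lars rose by 0.25 ± 0.05 (edgeR adjusted p = 0.00140), with no overlap between the groups. Cars, for cysteine, was at 98.5, 96.7 and 100.4 CPM in shGAA and 85.5, 74.2 and 84.5 in shScrambled. It rose by 0.27 ± 0.06 (edgeR adjusted p = 0.00190), also without overlap.

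Gars, which makes the glycine enzyme of both the cytosol and the mitochondrion, was at 298, 292 and 281 CPM in shGAA and 268, 244 and 252 in shScrambled. The groups did not overlap and the rise was 0.19 ± 0.05 (edgeR adjusted p = 0.00552). Eprs, a fused enzyme for glutamate and proline, was higher at 0.19 ± 0.05 (adjusted p = 0.0104), with 345 to 369 CPM in shGAA and 296 to 341 in shScrambled. Its call ended without shGAA 1, shScrambled 2 or shScrambled 3, at an edgeR adjusted p of 0.0578, 0.0551 and 0.0580, whereas the other 8 rises passed in all 12 alternative analyses.

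**Figure D2:**
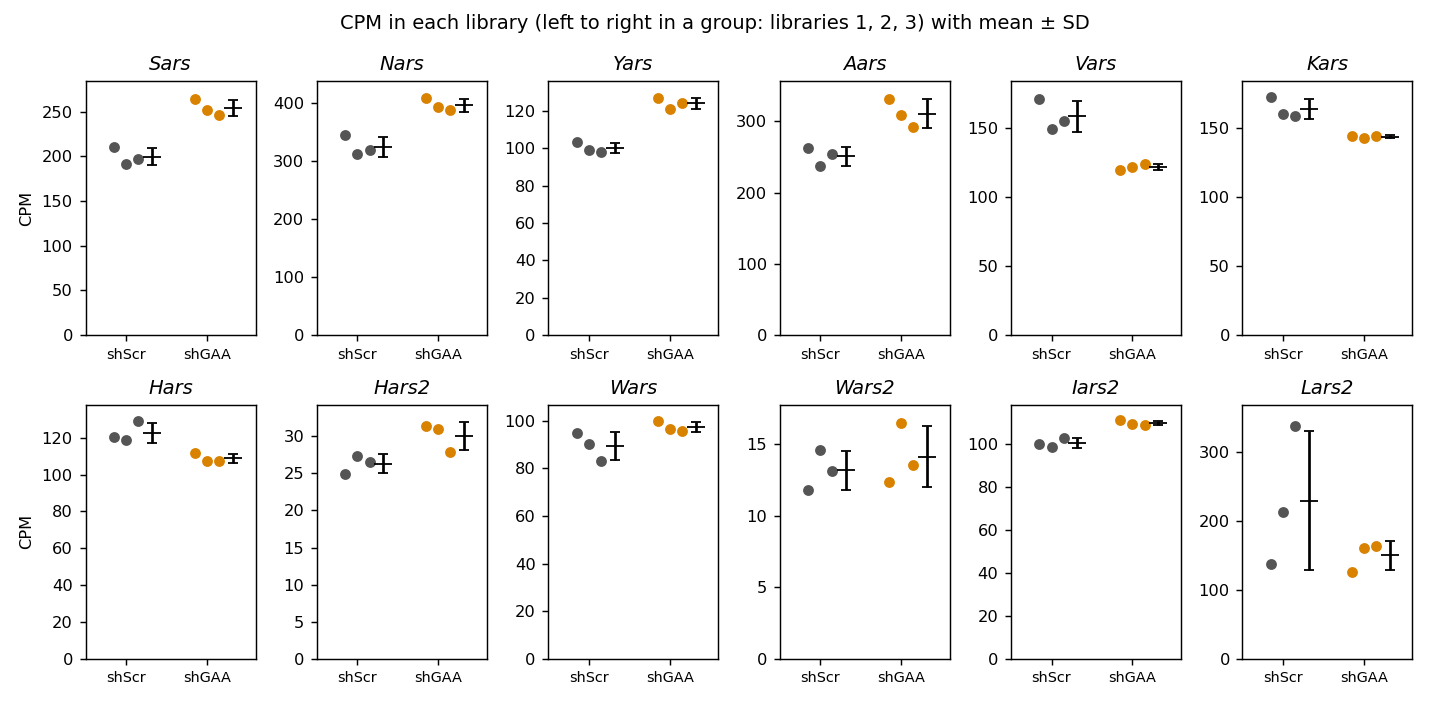
CPM of 12 synthetase transcripts in each library, grey for shScrambled (shScr) and orange for shGAA, with libraries 1 to 3 from left to right and the mean ± SD beside them; each panel has its own axis from 0. The groups are apart in Sars, Nars, Yars, Aars, Vars, Kars and Hars, overlap in Wars2 and Lars2, and Lars2 ranges from 137 to 336 CPM within shScrambled.

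Vars, which charges valine, moved the other way and had the largest change of all cytosolic synthetases. It was at 120, 121 and 124 CPM in shGAA and 171, 149 and 155 in shScrambled. Every shGAA library lay below every shScrambled library, and the transcript fell by 0.38 ± 0.06 on the log2 scale (edgeR adjusted p = 6.07e-05), a 1.30-fold reduction. Vars lies on chromosome 17 at 35000987 to 35016322 and shares no exon with another annotated gene. The valyl enzyme is bound to elongation factor 1. Of 7 tested genes of cytosolic elongation 3 were lower and 0 higher, against 19.7% lower and 18.5% higher over all tested genes. The 3 lower genes were Eef1b2 (-0.26 ± 0.04), Eef1d (-0.16 ± 0.05) and Eif5a (-0.32 ± 0.05). Eef1b2 and Eef1d encode subunits of elongation factor 1, and Eif5a relieves stalled ribosomes. Eef1a1 (-0.03 ± 0.04) and Eef1g (-0.09 ± 0.05), named after their values were seen, also encode subunits of elongation factor 1. Both had overlapping groups and did not pass. Under library size scaling Eef1d lost its call (edgeR adjusted p = 0.1001) and 1 gene of the list was higher, and Eef1d lost it too on leaving out shGAA 2 (0.0655), shGAA 3 (0.141) or shScrambled 3 (0.0648).

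Kars, like Gars, serves both compartments, here for lysine, and it was lower where Gars was higher. Kars was at 144, 143 and 144 CPM in shGAA and 172, 160.3 and 159 in shScrambled, without overlap (log2 fold change -0.19 ± 0.05, edgeR adjusted p = 0.00799). Its fall, like that of Vars, passed in all 12 alternative analyses. Dars, for aspartate, was lower at -0.18 ± 0.05 (adjusted p = 0.00801), with 168 to 181 CPM in shGAA and 197 to 199 in shScrambled.

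The phenylalanine enzyme of the cytosol is built from alpha and beta subunits, of which the beta subunit transcript passed the test. Farsb, the beta subunit, was at 92.7, 84.9 and 94.1 CPM in shGAA and 109.9, 100.2 and 102 in shScrambled, a fall of 0.20 ± 0.06 (edgeR adjusted p = 0.0133). Farsa, the alpha subunit, was at 109.8, 115 and 106 CPM against 109, 107 and 115, with overlapping groups and a 95% interval of the log2 fold change of -0.11 to 0.11. The log2 ratio of Farsa to Farsb was 0.28 ± 0.13 (SD, n = 3) in shGAA and 0.08 ± 0.09 in shScrambled, with the lowest shGAA library at 0.174 and the highest shScrambled library at 0.169, and the difference reached p = 0.10 in a 2-sided exact permutation test, the smallest value that 3 against 3 libraries allow. In Farsb 9.47% of exonic bases overlap Sgpp2 on the opposite strand.

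Hars and Hars2 lie head to head on chromosome 18, at 36766528 to 36783205 on the minus strand and 36783008 to 36792562 on the plus strand, and charge histidine in the cytosol and the mitochondrion. Hars was at 112, 107.5 and 107.3 CPM in shGAA and 120.5, 119 and 129 in shScrambled, lower in every library (-0.17 ± 0.05, edgeR adjusted p = 0.0179). Hars2 was at 31.4, 30.9 and 27.9 CPM in shGAA and 25.0, 27.4 and 26.6 in shScrambled. It was higher in every shGAA library but did not pass (0.19 ± 0.09, adjusted p = 0.0915). The annotated exons overlap on opposite strands over 7.97% of Hars and 4.56% of Hars2, so some reads may not be separable. Hars lost its call under library size scaling (edgeR adjusted p = 0.0754) and on leaving out shGAA 2 (0.0693), shGAA 3 (0.0631) or shScrambled 3 (0.0964). Leaving out shGAA 2 also ended the calls of Dars (edgeR adjusted p = 0.0572) and Farsb (0.0891), so that 2 lower cytosolic genes were left.

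The remaining cytosolic synthetases did not pass. Wars charges tryptophan and is known as an interferon-induced gene. It was at 99.9, 96.8 and 95.6 CPM in shGAA and 94.8, 90.1 and 83.2 in shScrambled. These groups of Wars did not overlap, but only by a narrow gap, and the difference was 0.12 ± 0.06 (edgeR adjusted p = 0.107). Of 15 tested interferon response genes 13 were higher and 0 lower, against 18.5% higher and 19.7% lower over all tested genes. Among the higher ones were Gbp2 (1.45 ± 0.12), Stat2 (0.76 ± 0.07) and Isg15 (1.63 ± 0.14), with each log2 fold change above that of Wars. Wars passed without shScrambled 1 (0.17, edgeR adjusted p = 0.0191) and under library size scaling (0.0260).

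Mars, which charges methionine, was at 0.14 ± 0.06 (adjusted p = 0.0885). It passed without shScrambled 1 (0.20, edgeR adjusted p = 0.00185), under library size scaling (0.0231) and when low counts were not filtered (0.0429). Exons of Mars overlap those of Ddit3, a stress-induced transcription factor gene that rose by 0.66 ± 0.08, over 1.99% of Mars on the opposite strand. Tars (threonine, 0.04 ± 0.06), Qars (glutamine, -0.03 ± 0.05) and Rars (arginine, -0.08 ± 0.05) had overlapping groups. Their 95% intervals were -0.08 to 0.15, -0.14 to 0.08 and -0.18 to 0.03, which leave out the size of the Sars change.

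**Figure D3:**
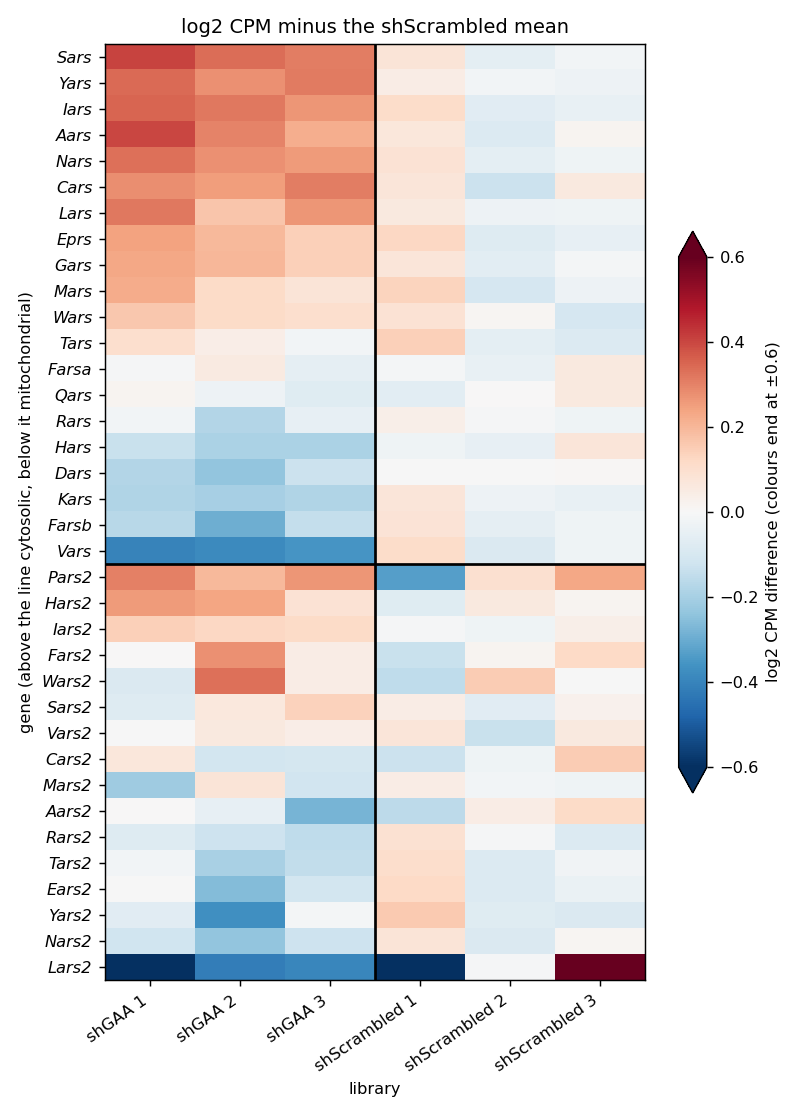
Log2 CPM of the 36 synthetases in each of the 6 libraries, minus the mean of the shScrambled libraries for that gene; red is higher, blue is lower, and colours end at ±0.6. The cytosolic genes above the line are sorted from Sars to Vars; the 14 called ones keep their direction across the 3 shGAA libraries and Tars, Qars and Farsa do not, while most mitochondrial genes below it vary from library to library.

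Calls in both directions were found inside and outside the multi-synthetase complex and in both enzyme classes. For comparison with the counts that follow, 18.5% of all tested genes were higher and 19.7% lower. Of the 8 enzymes of the complex 3 were higher (Eprs, Iars and Lars), 2 were lower (Dars and Kars) and 3 did not pass (Mars, Qars and Rars), with a median of 0.05. Of the 12 cytosolic genes outside it 6 were higher, 3 lower and 3 did not pass, with a median of 0.16. The scaffold genes of the complex had 2 falls and 0 rises among 3. Aimp2 was at 42.7, 38.2 and 33.9 CPM in shGAA and 50.3, 43.9 and 49.2 in shScrambled (-0.32 ± 0.09, edgeR adjusted p = 0.00678). Eef1e1 changed by -0.30 ± 0.10 (adjusted p = 0.0353) with overlapping groups, and Aimp1 was at -0.08 ± 0.06 (adjusted p = 0.324). The 2 falls became 1 under library size scaling and on leaving out shGAA 1, shGAA 2, shGAA 3 or shScrambled 1. Among class I cytosolic enzymes 4 of 9 were higher and 1 lower, and among class II enzymes 4 of 10 were higher and 4 lower, with Eprs holding a domain of each class.

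Summed over the 20 genes, cytosolic synthetase transcripts made up 4031, 3861 and 3833 CPM in shGAA and 3799, 3474 and 3557 in shScrambled. The shGAA libraries lay above the shScrambled ones, by 8.26% on the means, with shScrambled 1 close to shGAA 3. Among all tested genes of 50 to 500 CPM, the range that holds all 20 cytosolic genes, 20.2% were higher and 25.8% lower, together 46.0%. The 9 higher of 20 are above that share and the 5 lower of 20 are near it. Counted by groups that do not overlap, 10 cytosolic genes were higher and 5 lower, where 24.7% and 24.9% of all tested genes did so, together 49.6%.

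Mitochondrial synthetase transcripts were far less abundant. Per kilobase of the principal transcript, their shScrambled level had a median of 6.23 CPM per kb and that of the cytosolic genes a median of 57.7. On this scale the cytosolic genes ran from Cars at 25.3 ± 1.94 to Gars at 107 ± 5.12 and Nars at 118 ± 6.24. The mitochondrial genes ran from Mars2 at 1.27 ± 0.034 to Iars2 at 18.4 ± 0.401, apart from Lars2 at 58.8 ± 25.8. Tars2 at 18.0 ± 1.22 was within its spread of Iars2. Yars2 at 15.1 ± 1.46 and Rars2 at 13.7 ± 0.833 followed, without differing from each other beyond their spread. The low place of Mars2 depends on its annotated principal transcript of 11294 bases. Without scaling by length its shScrambled mean was 14.4 CPM, and the lowest synthetase was Pars2 at 6.81 CPM.

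No mitochondrial synthetase was called by edgeR, DESeq2 or limma-voom. At an unadjusted p under 0.05 in edgeR there were 2, Iars2 and Hars2. The share of all tested genes at this cutoff was not computed. It cannot be below the 38.2% that passed the adjusted cutoff. Iars2, for isoleucine, was at 111, 109 and 109 CPM in shGAA and 99.97, 98.5 and 103 in shScrambled. All shGAA libraries of Iars2 lay above the others, by 0.13 ± 0.05 (edgeR adjusted p = 0.0615). Its exons overlap those of Rab3gap2, a neighbour on the opposite strand at -0.13 ± 0.06, over 22.9% of Iars2. Under library size scaling Iars2 (edgeR adjusted p = 0.0130) and Hars2 (0.0366) passed.

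Lars2, the mitochondrial leucine enzyme, was the most uneven synthetase. It was at 126, 161 and 163 CPM in shGAA and 137, 213 and 336 in shScrambled. The groups overlapped, and the difference of -0.61 ± 0.38 did not pass (edgeR adjusted p = 0.295). Without shScrambled 3 it was -0.22, and in the non-robust fit it passed (adjusted p = 0.0443). Of the 50-base stretches of Lars2, 0.20% occur in GENCODE M21 transcripts of other genes. Sequences outside those transcripts were not searched, so reads from such sequences could not be seen this way. Summed over the other 15 mitochondrial genes the level was 347 to 358 CPM in shGAA and 342 to 353 in shScrambled, so that the groups overlapped.

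The other mitochondrial genes lay between -0.16 and 0.24 on the log2 scale. Positive values were those of Pars2 (proline, 0.24 ± 0.16), Fars2 (phenylalanine, 0.11 ± 0.12), Wars2 (tryptophan, 0.10 ± 0.13), Sars2 (serine, 0.04 ± 0.14) and Vars2 (valine, 0.03 ± 0.11). Negative values were those of Cars2 (cysteine, -0.05 ± 0.12), Mars2 (methionine, -0.08 ± 0.12), Aars2 (alanine, -0.11 ± 0.11), Tars2 (threonine, -0.12 ± 0.08), Rars2 (arginine, -0.12 ± 0.09), Ears2 (glutamate, -0.12 ± 0.13), Yars2 (tyrosine, -0.14 ± 0.11) and Nars2 (asparagine, -0.16 ± 0.12). Wars2 was at 12.4, 16.5 and 13.5 CPM in shGAA and 11.8, 14.6 and 13.1 in shScrambled, with overlapping groups. The groups of Nars2 did not overlap, at 10.3 to 11.2 against 11.5 to 12.8 CPM.

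Low transcripts were measured with less precision. The median SE was 0.12 in the mitochondrial set and 0.05 in the cytosolic set, with 52 to 3152 and 691 to 4120 counts per gene and library. For 11 of the 16 mitochondrial genes the 95% interval of the log2 fold change included 0.3 or -0.3, a change of the size seen in Sars, Yars or Iars. Among all tested genes of 5 to 50 CPM, the range of 14 of the 16 mitochondrial genes, 34.2% were called, at changes of any size.

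**Figure D4:**
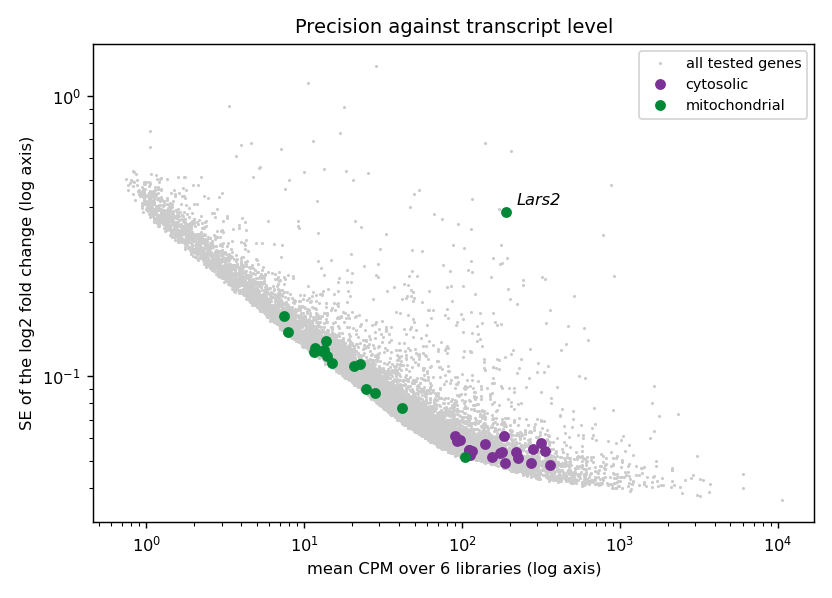
SE of the log2 fold change against mean CPM over the 6 libraries, both on log axes, for 11800 tested genes in grey (1 gene lies beyond the plotted SE range) with cytosolic synthetases in purple and mitochondrial ones in green. The mitochondrial genes sit at lower CPM and larger SE, except Iars2 among the cytosolic genes and Lars2 far above the other genes of its level.

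The cytosolic transcript was also set against its mitochondrial partner within each library, as a log2 ratio in 17 pairs that share Eprs and Fars2. The ratio was higher in all shGAA than in all shScrambled libraries in 8 pairs and lower in 3, and the groups overlapped in 6. Single tested genes were higher without overlap in 24.7% and lower without overlap in 24.9%. The share for ratios of other gene pairs was not computed, and each ratio reuses the values of the members given above. With 3 libraries against 3 the 2-sided exact permutation test cannot go below p = 0.10. The 11 pairs without overlap reached it, or 0.155 adjusted over the 17 pairs, so no pair passed. The largest shifts without overlap were those of Yars to Yars2, with 2.53 ± 0.17 (SD, n = 3) in shGAA and 2.08 ± 0.10 in shScrambled, and Nars to Nars2, with 5.17 ± 0.07 and 4.73 ± 0.03. Aars to Aars2 followed at 3.97 ± 0.07 and 3.55 ± 0.20. The lower ratios were those of Vars to Vars2 (3.01 ± 0.03 and 3.42 ± 0.08), Hars to Hars2 (1.86 ± 0.08 and 2.22 ± 0.09) and Farsb to Fars2 (2.70 ± 0.23 and 3.01 ± 0.19).

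**Figure D5:**
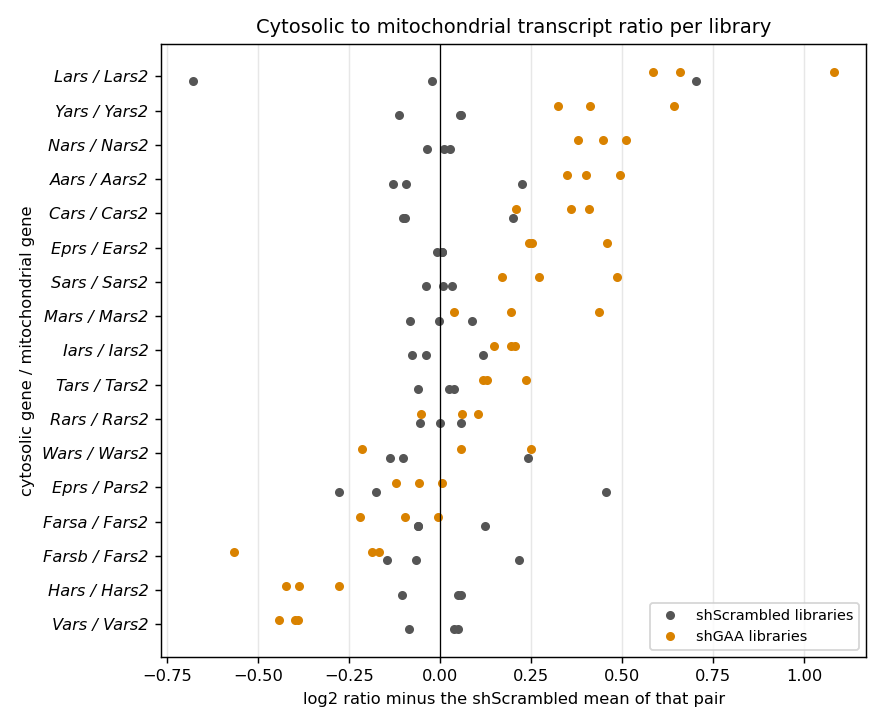
Log2 ratio of a cytosolic synthetase to its mitochondrial partner in each library, minus the shScrambled mean of that pair, with shScrambled libraries in grey and shGAA libraries in orange. The pairs from Yars / Yars2 to Tars / Tars2 lie mostly to the right of 0 in shGAA, Hars / Hars2 and Vars / Vars2 lie to the left, and Lars / Lars2 spreads widely in shScrambled.

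The ATF4 pathway, described above as background, was read from lists chosen with earlier results known. Over all tested genes 18.5% were higher and 19.7% lower. Atf4 was at 488, 466 and 457 CPM in shGAA and 462, 401 and 389 in shScrambled. The groups of Atf4 overlapped through shScrambled 1, with a log2 fold change of 0.17 ± 0.06 (edgeR adjusted p = 0.0286). Of 14 tested eIF2 alpha kinases and genes of their pathway 7 were higher and 2 lower, with a median of 0.14. The higher count was 5 or 6 when single libraries were left out and 6 in DESeq2 and the non-robust fit. The lower count became 1 under library size scaling and on leaving out shGAA 3 or shScrambled 1. It became 3 without shScrambled 3 and without the filter on low counts. Smallest in adjusted p in this list were Impact (0.57 ± 0.05), an inhibitor of the amino acid sensing kinase, and Eif2ak2 (0.61 ± 0.06), the kinase for double-stranded RNA. Ddit3 and Atf5 (0.34 ± 0.06) followed. The 2 lower genes, named after their values were seen, were Atf3 (-0.45 ± 0.11, edgeR adjusted p = 0.00436) and Ppp1r15b (-0.17 ± 0.05, 0.0231). The other kinases, Eif2ak1, Eif2ak3 and Eif2ak4, did not pass. Of 28 tested ATF4-regulated genes, mostly of amino acid and one-carbon metabolism, 16 were higher and 2 lower, with a median of 0.28. The higher count was 13 to 17 when single libraries were left out. The lower count became 1 under library size scaling and on leaving out shGAA 1, shGAA 2 or shScrambled 3, and 3 without the filter. This list also holds genes of other functions, among them Nupr1, Sesn2 and Stc2, which were higher. Gdf15, Ddit4, Vldlr and Eif4ebp1, likewise of other functions, did not pass. Pck2 (0.88 ± 0.08), Gpt2 (0.59 ± 0.07) and Aldh18a1 (0.42 ± 0.06), enzymes of phosphoenolpyruvate, alanine and proline synthesis, rose, and the serine synthesis gene Psat1 fell by 0.47 ± 0.05. The other serine synthesis genes of the list, named after their values were seen, were higher, Phgdh by 0.22 ± 0.06 (edgeR adjusted p = 0.0125) and Psph by 0.51 ± 0.10 (0.000718).

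Other genes around tRNA charging mostly did not pass. Beside the counts that follow, the shares over all tested genes were 18.5% higher and 19.7% lower. Of 9 tested mitochondrial translation factors, 4 genes of the mitochondrial amidotransferase and formylation steps, 6 proofreading genes and 6 genes of selenocysteine charging, edgeR, DESeq2 and limma-voom called 0. At an unadjusted p under 0.05 in edgeR these lists held 1, 0, 1 and 1 gene. For all tested genes the share at that cutoff was not computed, and it cannot be below the 38.2% called. A lower translation factor was called on leaving out shScrambled 2. A lower selenocysteine gene was called on leaving out shGAA 3 or shScrambled 2 and without the filter on low counts. A higher proofreading gene was called on leaving out shScrambled 1, under library size scaling, without the filter and with the replicate block. Of 19 genes of tRNA end processing and export 1 was higher, Tsen34 of the splicing endonuclease (0.40 ± 0.07), and 1 was lower, Rpp30 of ribonuclease P (-0.37 ± 0.08). The higher genes of this list were 4 without shScrambled 1, 3 under library size scaling, and 2 without shGAA 3 or without the filter. The lower ones were 2 without shGAA 1, shScrambled 2 or the filter, and with the replicate block. Of 19 genes of RNA polymerase III and its factors, which transcribe the tRNA genes, 3 were higher and 1 lower. The lower gene was the polymerase subunit gene Polr3g (-0.45 ± 0.12). The higher ones were the polymerase's repressor Maf1 (0.24 ± 0.07) and Gtf3c1 (0.14 ± 0.05) and Gtf3c4 (0.15 ± 0.06) of transcription factor IIIC, and the 3 rises became 1 in DESeq2, with the replicate block and on leaving out shGAA 1, shGAA 2, shScrambled 2 or shScrambled 3.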

How the data were processed

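RNA was sequenced from 6 libraries of differentiated C2C12 cells, 3 per group, made from 1 ug of total RNA per the labels. The values are raw counts, 1 row per gene symbol, as deposited by the authors in a single table. Per the submitters' processing notes it was made with mm10, HISAT2 2.1.0, Subread, FastQC and edgeR. Which annotation was used, whether strand was used and how multi-mapping reads were handled: not given in the sources used here. The members and gene lists were chosen with earlier results of these data known.

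Genes were kept by filterByExpr (11801, at least 99.9% of each library's counts), scaled by TMM and tested on the counts with edgeR 4.0.16 (R 4.3.3, robust quasi-likelihood fit, group as the only term). SE is the coefficient divided by the square root of F, and 95% intervals are normal. Ratios used log2 CPM with a prior count of 0.5. Alternatives were DESeq2 1.42.0, limma-voom 3.58.1, library size scaling, no filter, a non-robust fit, the replicate block and leaving out each library. Every member was named, with values per library for the 10 called cytosolic genes with the smallest adjusted p, for Gars, Kars, Wars, Wars2, Hars and Hars2, and with up to 4 called genes per list, except items not reported here. Values per library of Farsa, Farsb, Iars2, Lars2, Atf4, Aimp2 and of groups without overlap were added after they were seen. In 5 simulations with 200 changed genes among 11801, 91% of 1.5-fold and 99% of 2-fold changes were recovered, and 5.16% of calls fell on unchanged genes. The simulated dispersion followed the expression level and not the single gene, and changed genes lay above 5 CPM. In the data 4512 genes were called. Genes as uneven as Lars2 and a library standing apart like shScrambled 1 were not simulated, so these percentages need not hold for the data. Smaller changes, such as those of the called synthetases (at most 1.30-fold), were not simulated, so their recovery is not known. Overlaps and transcript lengths are from GENCODE M21.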

Additional observations from a re-analysis of the deposited data

How the results depend on the processing

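Under the 12 alternatives no synthetase called in any analysis changed direction. Mitochondrial calls appeared in 2 settings: scaling by library size gave 2 higher, and the non-robust fit gave 1 lower (Lars2). The mitochondrial median was -0.018 under library size scaling and -0.077 to -0.011 when single libraries were left out. Lower cytosolic calls were 2 to 5 over the same omissions, fewest without shGAA 2. The causes were not tested. The replicate numbers do not pair the libraries: deviations of same-numbered libraries correlated at -0.04, 0.05 and -0.01, and only the libraries numbered 2 matched best with each other. The replicate block gave 2037 higher and 2197 lower genes and changed no call of a synthetase. In the lists it gave 1 higher proofreading gene in place of 0 and 2 lower tRNA processing genes in place of 1. It also gave 1 higher RNA polymerase III gene in place of 3 and 12 higher interferon response genes in place of 13. DESeq2 gave 1627 higher and 1907 lower genes, with 9 and 5 cytosolic. The median SE was 0.12 in the mitochondrial set; the part of depth in its lack of calls was not tested.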
